A study of Mus musculus and Rattus norvegicus with 18 samples.

Results

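Aminoacyl-tRNA synthetases, the enzymes that load each amino acid onto its transfer RNA, were followed in primary tubular epithelial cells (TECs) of mouse kidney and in NRK49F, a fibroblast line of rat kidney. Members were chosen by gene symbol: those written as 1 capital letter followed by "ars", with or without a closing 1 or 2, together with Eprs, Farsa, Farsb and the threonyl enzyme called Tarsl2 in mouse and Tars3 in rat. The rule found 38 genes of 22322 in the mouse table and 38 of 22050 in the rat table. In each species 21 were cytosolic and 17 mitochondrial, and all 38 passed the filter on low counts. The mitochondrial enzymes are those whose symbols end in 2, apart from Tarsl2. Gars and Kars, whose genes also encode the mitochondrial form of their enzyme, were counted as cytosolic.

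Poly(A) RNA was sequenced in 18 libraries, 3 for each of 6 groups. In each cell kind, 1 group received 5 ng/ml TGF-β1 for 24 h with 20 nM narciclasine, which was added 2 h earlier, 1 received the same TGF-β1 without narciclasine, and 1 was the control. All groups had first been kept without serum for 6 h. Narciclasine is a plant alkaloid known to bind the large ribosomal subunit and to inhibit peptide elongation, and TGF-β1 is the cytokine best known for driving kidney fibrosis. No group received narciclasine alone, so its effect was measured only in cells that also had TGF-β1. Cell kind and species cannot be told apart. NRK49F is 1 established line, and no label ties a TEC replicate to an animal of its own, so the spread behind each p-value may be technical.

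The libraries held 16652016 to 25192716 counts in TECs and 14695732 to 18463855 in NRK49F. Cdh1, the epithelial cadherin, had 809 to 1135 CPM (counts scaled to a common library size) in the TEC libraries, whereas Slc34a1, the phosphate transporter of the proximal tubule, had at most 0.338. Col1a1, a fibrillar collagen gene, had 7030 to 24298 CPM in NRK49F, where the fibroblast markers Dcn and Thy1 were near 0, at up to 0.443 and 0.0656 CPM. Replicate 2 stood apart in every NRK49F group: the squared difference between libraries was 7.58 to 19.9 times the counting error in pairs with replicate 2 and 2.39 to 3.34 times in the others. In TECs, 12 macrophage and leukocyte markers summed to 31.5 to 32.1 CPM with TGF-β and narciclasine, 72.3 to 78.7 with TGF-β and 47.0 to 48.5 in controls. Of 11 tested, 7 rose and 1 fell with TGF-β, where 34.1% of all genes rose and 34.9% fell. When narciclasine was added 9 fell, against 25.5% of all genes. Of these markers Tyrobp and Cd52 had at most 1.18 and 0.772 CPM in TECs and were at 0 in at least 1 library. Fibroblast markers in TECs summed to 121 to 135, 329 to 351 and 94.1 to 96.3 CPM in the same order of groups. Endothelial markers in TECs summed to 108 to 113, 113 to 119 and 101 to 102 CPM. Podocyte markers in TECs summed to 116 to 121, 111 to 113 and 121 to 127 CPM. Of 11 tubular epithelial markers tested in TECs, 4 rose and 7 fell with TGF-β, against 34.1% and 34.9% of all genes. In NRK49F, 12 tubular epithelial markers summed to 575 to 628 CPM with TGF-β and narciclasine, 679 to 787 with TGF-β and 1230 to 1334 in controls, nearly all of it Krt8. All 3 tested fell with TGF-β, as did 38% of all genes. There 5 podocyte markers summed to 58.7 to 64.4, 38.0 to 40.8 and 188 to 294 CPM, nearly all of it Synpo, while Cdh1, Epcam and Nphs1 had at most 0.721, 0.300 and 0.212 CPM. The part of these markers in the synthetase results was not tested, and in bulk RNA fewer cells of a type cannot be told apart from less RNA per cell.

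Each synthetase joins 1 amino acid to the tRNAs that read its codons, and Eprs joins a pair of them, glutamate and proline. The enzymes fall into 2 structural classes, and 8 of the cytosolic ones sit in the multisynthetase complex, held together by the scaffold proteins Aimp1, Aimp2 and Eef1e1. Mitochondria translate their own mRNAs with a separate set, encoded in the nucleus and imported. Many genes for cytosolic enzymes are known targets of ATF4, the transcription factor made when amino acids run short or protein folding is disturbed, which binds the C/EBP-ATF response element.

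The response element, TGATGNAAN or its reverse complement NTTNCATCA, was searched in the RefSeq mouse promoter table (build GRCm38.p6), in windows from 250 bases before to 50 after each start. The table held windows for 28 of the 38 members. The element was present in 5 of 14 cytosolic windows (35.7%), in 0 of 14 mitochondrial windows and in 1299 of all 32851 windows (3.95%). The cytosolic genes holding it were Aars, Gars, Iars, Tars and Yars, and the Aars window held 2. The sequences of all 5 are shown. Their rat counterparts are among the 13 of 21 cytosolic genes that rose at least 2-fold with TGF-β in NRK49F. Over all genes, 11.8% rose that far. Cars, Eprs, Lars1, Mars1, Nars1, Sars1, Vars1 and Wars1 of the rat, whose mouse counterparts are not among the 5, also rose at least 2-fold. A part of the element in these rises was not tested. Only 14 of the 21 cytosolic genes had a window, so a gene outside the 5 may not have been searched. In the mouse TECs themselves, the log2 changes with TGF-β were 0.10 for Gars, 0.07 for Iars and −0.07 for Tars, which passed edgeR's test at an adjusted p under 0.05, and −0.0025 for Aars and −0.07 for Yars, which did not. Gars and Iars turned to −0.03 and −0.06 with scaling by total counts. Each sequence shown runs from 120 bases before the start to 20 after it, 5′ to 3′ along the gene, with the element in capitals. No rat sequence was used here, and a match describes these letters only. The Aars window lies at chr8:111033722-111033861 (+ strand), Gars at chr6:55037881-55038020 (+ strand), Iars at chr13:49682010-49682149 (+ strand), Tars at chr15:11399639-11399778 (- strand) and Yars at chr4:129189783-129189922 (+ strand).
Aars: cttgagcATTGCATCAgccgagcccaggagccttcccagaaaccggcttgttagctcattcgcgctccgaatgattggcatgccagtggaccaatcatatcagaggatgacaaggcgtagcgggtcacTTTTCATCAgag
Gars: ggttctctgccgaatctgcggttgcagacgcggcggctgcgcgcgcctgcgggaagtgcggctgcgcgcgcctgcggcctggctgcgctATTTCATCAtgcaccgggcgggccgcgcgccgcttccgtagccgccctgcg
Iars: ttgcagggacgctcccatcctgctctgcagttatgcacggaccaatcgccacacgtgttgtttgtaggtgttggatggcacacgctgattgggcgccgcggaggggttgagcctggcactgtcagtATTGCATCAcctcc
Tars: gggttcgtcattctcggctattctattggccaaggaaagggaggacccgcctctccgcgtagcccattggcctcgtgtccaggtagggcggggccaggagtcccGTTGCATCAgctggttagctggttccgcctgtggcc
Yars: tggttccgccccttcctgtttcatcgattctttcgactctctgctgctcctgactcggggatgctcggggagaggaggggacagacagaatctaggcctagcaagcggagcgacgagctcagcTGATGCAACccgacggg

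With TGF-β, NRK49F cells had more mRNA for most cytosolic synthetases and less for most mitochondrial ones. Of 21 cytosolic genes, 15 rose, 1 fell and 5 did not pass the test, with a median log2 change of 1.15, against −0.05 over all 11444 genes tested. Among those genes, 33.7% rose and 38% fell in the same comparison. At least 2-fold rises were seen for 13 cytosolic genes, and 11.8% of all genes rose that far. Calls are those of edgeR's quasi-likelihood test at an adjusted p under 0.05, and levels are CPM scaled by TMM factors.

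Cars, the cysteinyl enzyme, had the largest rise. Its levels were 123, 125 and 125 CPM with TGF-β and narciclasine, 492, 481 and 506 with TGF-β and 114, 102 and 115 in control cells. The 3 TGF-β libraries lay far above all others, and no groups overlapped. The log2 change was 2.16 ± 0.0573 (SE, adjusted p = 1.6e-13) for TGF-β over control, −1.99 ± 0.0568 (SE, adjusted p = 4.32e-12) for TGF-β with narciclasine over TGF-β, and 0.17 ± 0.0564 (SE, adjusted p = 0.0141) for TGF-β with narciclasine over control. The last call was not made with scaling by total counts, where the adjusted p was 0.401.

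Aars, the alanyl enzyme whose mouse promoter holds the element at 2 places, had 243, 241 and 251 CPM with TGF-β and narciclasine, 569.9, 575 and 583 with TGF-β and 161, 137 and 161 in control cells. Gars, the glycyl enzyme, had 462, 444 and 464 CPM with TGF-β and narciclasine, 1009, 989 and 956 with TGF-β and 281, 266 and 284 in control cells. In both, the TGF-β libraries were highest, the libraries with narciclasine lay between, and no groups overlapped. Aars changed by 1.91 ± 0.0631 (SE, adjusted p = 1.54e-12) with TGF-β and by −1.23 ± 0.0616 (SE, adjusted p = 6.58e-10) when narciclasine was added. Gars changed by 1.83 ± 0.0526 (SE, adjusted p = 3.74e-13) with TGF-β and by −1.11 ± 0.0515 (SE, adjusted p = 3.28e-10) when narciclasine was added.

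Eprs, the glutamyl-prolyl enzyme, had 318, 308 and 310.03 CPM with TGF-β and narciclasine, 612, 584 and 609 with TGF-β and 174, 168 and 181 in control cells. Iars1, the isoleucyl enzyme, had 251, 252 and 264 CPM with TGF-β and narciclasine, 372, 392 and 380.1 with TGF-β and 112, 101 and 119 in control cells. Yars1, the tyrosyl enzyme, had 139, 124 and 139 CPM with TGF-β and narciclasine, 244, 250.3 and 253 with TGF-β and 84.7, 72.6 and 89.99 in control cells. All 3 were highest with TGF-β and lowest in controls, with no overlap between groups. The log2 changes with TGF-β were 1.79 ± 0.0514 (SE, adjusted p = 3.72e-13) for Eprs, 1.78 ± 0.0617 (SE, adjusted p = 2.56e-12) for Iars1 and 1.59 ± 0.0741 (SE, adjusted p = 6.53e-11) for Yars1.

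Wars1, the tryptophanyl enzyme, which interferon-γ is known to induce, had 82.6, 81.2 and 78.1 CPM with TGF-β and narciclasine, 201, 185 and 199.9 with TGF-β and 91.8, 74.2 and 85.5 in control cells. The narciclasine libraries overlapped the control libraries, and the TGF-β libraries were at least 2-fold above every library of either group. Wars1 changed by 1.22 ± 0.0719 (SE, adjusted p = 9.12e-10) with TGF-β and by −1.28 ± 0.0719 (SE, adjusted p = 2.05e-09) when narciclasine was added, and was not called between TGF-β with narciclasine and control, at −0.06 ± 0.0726 (SE, adjusted p = 0.504). The other genes that rose at least 2-fold with TGF-β were Nars1, Vars1, Sars1, Tars1, Lars1 and Mars1, with log2 changes of 1.005 to 1.57. Qars1, the glutaminyl enzyme, and Tars3 rose by 0.48 and 0.56.

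**Figure D1:**
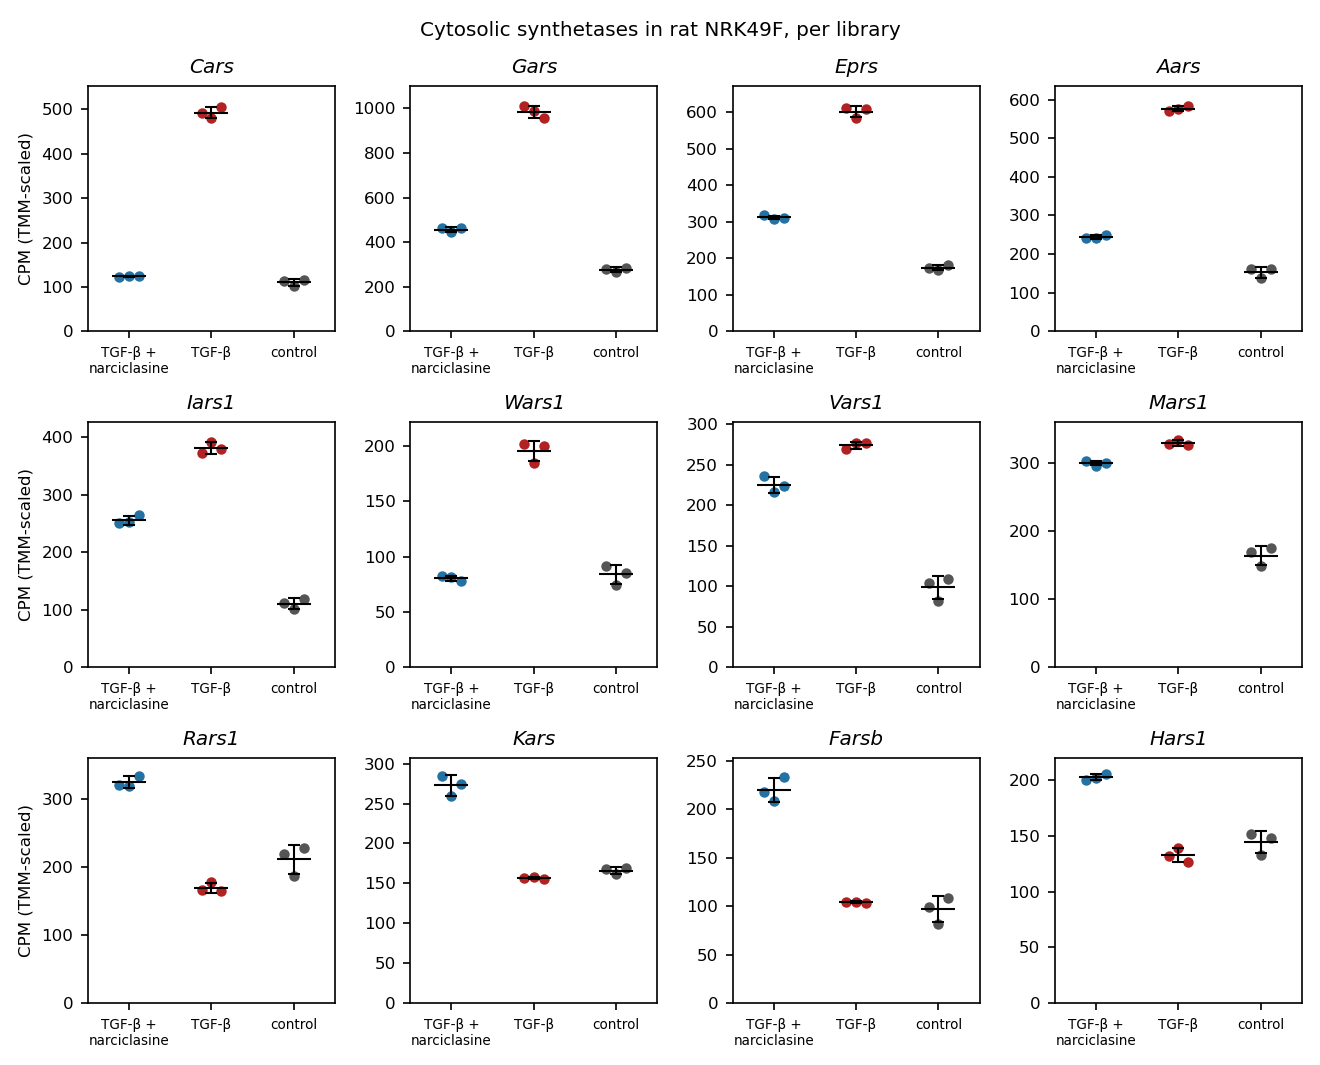
CPM of 12 cytosolic synthetases in each NRK49F library (points), with the mean and SD of 3 libraries (bars), for TGF-β with narciclasine, TGF-β and control, on axes that start at 0. In the first 8 panels the TGF-β libraries are highest, while Rars1, Kars, Farsb and Hars1 are highest with TGF-β and narciclasine.

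The other 6 cytosolic genes were not called higher with TGF-β. Rars1, the arginyl enzyme, was the cytosolic member that fell. Its levels were 320.3, 319 and 334 CPM with TGF-β and narciclasine, 166, 178 and 164 with TGF-β and 219, 187 and 228 in control cells, highest in the narciclasine libraries and without overlap between groups. It changed by −0.32 ± 0.0683 (SE, adjusted p = 0.00064) with TGF-β and by 0.94 ± 0.0683 (SE, adjusted p = 2.36e-08) when narciclasine was added. Dars, Farsa, Farsb, Hars1 and Kars did not pass the test with TGF-β, with log2 changes of −0.12 to 0.10. Under scaling by total counts, 5 cytosolic genes fell and 15 rose, and Farsa, at 0.03 with TMM factors, became −0.16.

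Kars, the lysyl enzyme, had 285, 259 and 274 CPM with TGF-β and narciclasine, 156, 158 and 155 with TGF-β and 167, 162 and 169 in control cells. Farsb, the β subunit of the phenylalanyl enzyme, had 218, 209 and 233 CPM with TGF-β and narciclasine, 105, 104 and 103 with TGF-β and 99.2, 82.2 and 109 in control cells, and Farsa, its α subunit, had 86.5, 77.8 and 81.8 CPM with TGF-β and narciclasine, 52.8, 54.3 and 51.2 with TGF-β and 54.6, 47.8 and 53.2 in control cells. Narciclasine libraries were above every other library for all 3 genes. The log2 changes when narciclasine was added were 0.80 ± 0.0520 (SE, adjusted p = 7.51e-09) for Kars, 1.08 ± 0.0829 (SE, adjusted p = 7.29e-08) for Farsb and 0.64 ± 0.0682 (SE, adjusted p = 1.24e-06) for Farsa. Hars1 (histidyl) had 200.2, 202 and 205 CPM with TGF-β and narciclasine, 132, 139 and 126 with TGF-β and 152, 133 and 148 in control cells, and Dars (aspartyl) had 149, 139 and 153 CPM with TGF-β and narciclasine, 98.5, 99.7 and 104 with TGF-β and 111, 108 and 109 in control cells. They rose by 0.61 and 0.55 with narciclasine, again with the narciclasine libraries above all others.

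When narciclasine was added to TGF-β, 13 of 21 cytosolic genes fell, 6 rose and 2 (Mars1 and Tars3) did not pass the test, with a median of −0.33 against 0.00 over all genes. Over all genes, 31.1% fell and 31.6% rose. Of the cytosolic genes, 5 fell at least 2-fold (8.77% of all genes) and 1, Farsb, rose that far (4.62%). This comparison and that of TGF-β with control share the TGF-β libraries, so the direction in one is not independent of the direction in the other. Nars1, the asparaginyl enzyme, had 202, 206 and 200.3 CPM with TGF-β and narciclasine, 438, 434 and 431 with TGF-β and 145, 148 and 145 in control cells. Lars1, the leucyl enzyme, had 149.7, 138 and 156 CPM with TGF-β and narciclasine, 292, 284 and 286 with TGF-β and 136, 125 and 146 in control cells. Nars1 had no overlap between groups, and Lars1 overlapped between narciclasine and control. The 2 changed by −1.10 ± 0.0463 (SE, adjusted p = 1.17e-10) and −0.96 ± 0.0636 (SE, adjusted p = 9.73e-09) with narciclasine.

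Between TGF-β with narciclasine and control, 18 cytosolic genes were higher, 0 lower and 3 (Lars1, Tars3 and Wars1) not called, with a median of 0.66 against −0.01 over all genes, of which 33.4% were higher and 33.4% lower. Vars1, the valyl enzyme, had 236, 216 and 224 CPM with TGF-β and narciclasine, 269, 277 and 276 with TGF-β and 104, 82.3 and 109 in control cells. Mars1, the methionyl enzyme, had 303, 296 and 301 CPM with TGF-β and narciclasine, 328, 334 and 327 with TGF-β and 169, 148 and 175 in control cells. Tars1, the threonyl enzyme, had 188, 188 and 183 CPM with TGF-β and narciclasine, 233, 243 and 229 with TGF-β and 106, 105 and 106 in control cells. For these 3 the narciclasine libraries stood closer to the TGF-β libraries than to the controls. The largest differences from control were 1.21 ± 0.0611 (SE, adjusted p = 2e-10) for Iars1, 1.19 ± 0.0843 (SE, adjusted p = 2.25e-08) for Vars1 and 1.18 ± 0.0829 (SE, adjusted p = 1.5e-08) for Farsb, the 3 genes at least 2-fold higher, while 7.38% of all genes were that much higher and 11.5% that much lower. Mars1, Eprs and Tars1 followed with 0.87, 0.84 and 0.82.

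By structural class, the 9 cytosolic class I genes all passed the test with TGF-β in NRK49F, 8 rising and 1 falling, with a median of 1.22. Eprs belongs to both classes. Of the 11 class II genes, 6 rose and 5 did not pass, with a median of 0.56. Of the 8 enzymes of the multisynthetase complex, 5 rose and 1 fell, with a median of 0.74. Of the 13 cytosolic genes outside the complex, 10 rose and 0 fell, with a median of 1.39. Over all genes, 33.7% rose and 38% fell. Differences between these subgroups were not tested. The complex held Eprs and Iars1, which rose, Kars and Dars, which did not pass the test, and Rars1, which fell. The scaffold gene Eef1e1 changed by 1.43 and Aimp1 by −0.22, whereas Aimp2, at −0.14, did not pass the test. All 3 scaffolds were higher when narciclasine was added, by 0.83 for Aimp1, 0.84 for Aimp2 and 0.59 for Eef1e1, while 31.6% of all genes were higher.

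Most mitochondrial synthetases fell with TGF-β in NRK49F. Of 17 genes, 13 fell, 0 rose and 4 (Mars2, Nars2, Pars2 and Vars2) did not pass the test, with a median of −0.45. Over all genes, 38% fell and 33.7% rose, with a median of −0.05. Wars2, Sars2 and Fars2 were among the 4 genes at least 2-fold lower, and 11.3% of all genes fell that far.

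Wars2, the mitochondrial tryptophanyl enzyme, had 9.59, 11.1 and 9.47 CPM with TGF-β and narciclasine, 4.52, 5.26 and 3.32 with TGF-β and 12.7, 14.1 and 12.6 in control cells. Sars2, the mitochondrial seryl enzyme, had 24.9, 23.6 and 24.1 CPM with TGF-β and narciclasine, 8.72, 7.999 and 8.54 with TGF-β and 26.1, 20.1 and 25.5 in control cells. The TGF-β libraries were lowest for both, and for Sars2 the narciclasine libraries lay within the range of the controls. Wars2 changed by −1.59 ± 0.16 (SE, adjusted p = 3.34e-07) with TGF-β and by 1.20 ± 0.16 (SE, adjusted p = 1.09e-05) when narciclasine was added. Sars2 changed by −1.51 ± 0.11 (SE, adjusted p = 1.59e-08) with TGF-β and by 1.52 ± 0.11 (SE, adjusted p = 3.21e-08) when narciclasine was added.

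Fars2 (phenylalanyl) had 24.6, 22.2 and 23.2 CPM with TGF-β and narciclasine, 12.3, 10.7 and 14.3 with TGF-β and 30.1, 22.7 and 26.9 in control cells. Lars2 (leucyl) had 53.2, 51.3 and 52.5 CPM with TGF-β and narciclasine, 27.5, 29.5 and 26.3 with TGF-β and 58.05, 52.4 and 56.1 in control cells. In both, the TGF-β libraries were below every other library, and the libraries with narciclasine overlapped the controls. The log2 changes with TGF-β were −1.10 ± 0.12 (SE, adjusted p = 1.25e-06) for Fars2 and −0.999 ± 0.0714 (SE, adjusted p = 8e-09) for Lars2.

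When narciclasine was added to TGF-β, rises were called for 11 of 17 mitochondrial genes and falls for 0, the median was 0.56, and 5 genes rose at least 2-fold. Over all genes, 31.6% rose, 31.1% fell and 4.62% rose at least 2-fold. Rars2 (arginyl) had 10.2, 10.2 and 10.7 CPM with TGF-β and narciclasine, 4.13, 4.25 and 4.09 with TGF-β and 6.90, 7.91 and 9.53 in control cells. Tars2 (threonyl) had 66.3, 57.9 and 63.1 CPM with TGF-β and narciclasine, 26.7, 24.8 and 25.3 with TGF-β and 56.3, 35.8 and 54.98 in control cells. Yars2 (tyrosyl) had 18.01, 18.9 and 20.00 CPM with TGF-β and narciclasine, 8.46, 8.50 and 7.76 with TGF-β and 11.9, 9.81 and 11.1 in control cells. These 3 genes rose with narciclasine by 1.31, 1.28 and 1.20. All their libraries with narciclasine were above all control libraries, though Tars2 was not called against control. The edgeR call of Rars2 against control (adjusted p = 0.0392) was lost with DESeq2, where the adjusted p was 0.0629. Against control, 3 mitochondrial genes were higher (Ears2, Rars2 and Yars2), 4 lower (Aars2, Iars2 and Wars2 among them) and 10 not called, and neither share exceeded the 33.4% of all genes that were higher or the 33.4% that were lower. Yars2 at 0.79 ± 0.11 (SE, adjusted p = 1.07e-05) was the largest rise, and the count fell to 4 with any 1 of the 3 narciclasine libraries left out. Scaling by total counts gave 1 higher and 7 lower.

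Of the 4 mitochondrial genes not called with TGF-β, Nars2 lay between 4.45 and 6.12 CPM over the 9 libraries, Pars2 between 10.7 and 14.6, and Vars2 between 11.8 and 16.2. Mars2 lay between 1.18 and 2.05 CPM, and its rat counts were identical to those of another locus, so its value is uncertain. Cars2 fell by 0.67 with TGF-β (adjusted p = 0.0201). The level of Cars2 was 2.90, 2.34 and 2.52 CPM with TGF-β and narciclasine, 2.56, 1.73 and 2.19 with TGF-β and 3.18, 3.99 and 3.18 in control cells, and the libraries with narciclasine overlapped those with TGF-β. The TGF-β call was lost with DESeq2, where the adjusted p was 0.0516, and without replicate 2 of every group, where it was 0.203.

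**Figure D2:**
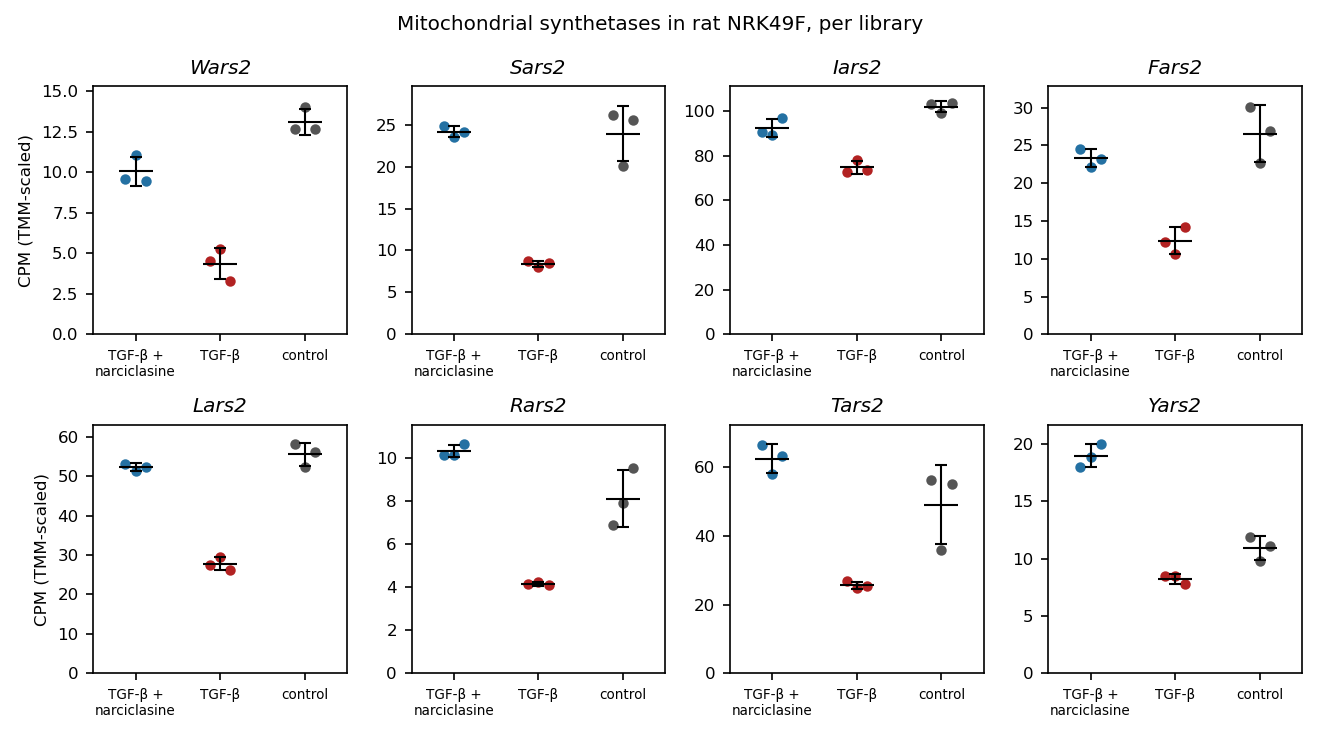
CPM of 8 mitochondrial synthetases in each NRK49F library (points), with the mean and SD of 3 libraries (bars), for TGF-β with narciclasine, TGF-β and control, on axes that start at 0. The TGF-β libraries are lowest in every panel.

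For 14 amino acids, 1 cytosolic and 1 mitochondrial gene could be set side by side. Threonine has a second cytosolic gene, Tarsl2 (Tars3 in rat), which was left out, and Tars (Tars1 in rat) was paired with Tars2. Eprs, Farsa and Farsb were not paired. In NRK49F with TGF-β, the cytosolic gene rose and the mitochondrial gene fell for 8 of them, and both fell for 1, arginine. The widest gaps were those of serine, where Sars1 changed by 1.39 and Sars2 by −1.51, cysteine, with 2.16 for Cars and −0.67 for Cars2, and tryptophan, with 1.22 for Wars1 and −1.59 for Wars2. The narrowest was that of histidine, with −0.12 for Hars1 and −0.40 for Hars2. In TECs with TGF-β, the cytosolic gene rose and the mitochondrial gene fell for 2 of the 14, and both fell for 6. Of all single genes tested, 33.7% rose and 38% fell with TGF-β in NRK49F, and 34.1% rose and 34.9% fell in TECs. The pairing itself was not tested.

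Summed over all members, cytosolic mRNA in NRK49F was 4249 ± 82.8 CPM with TGF-β and narciclasine, 6275 ± 11.7 with TGF-β and 2676 ± 148 in controls (SD, n = 3 each). Mitochondrial mRNA summed to 418 ± 12.5, 267 ± 8.46 and 421 ± 31.1 CPM in the same groups. The log2 ratio of the cytosolic to the mitochondrial sum was 3.35, 4.56 and 2.67, and the groups did not overlap in it. This ratio does not depend on the scaling of the libraries. In TECs the cytosolic sum was 4690 ± 12.5 CPM with TGF-β and narciclasine, 4428 ± 45.8 with TGF-β and 4670 ± 21.6 in controls. The mitochondrial sum in TECs was 394 ± 4.32, 357 ± 3.71 and 425 ± 3.37 CPM, and the log2 ratio 3.58, 3.63 and 3.46. The TEC groups did not overlap in this ratio either, with 3.555 to 3.593, 3.628 to 3.644 and 3.445 to 3.470. Without Lars2, the mitochondrial sum in TECs was 372, 338 and 400 CPM.

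**Figure D3:**
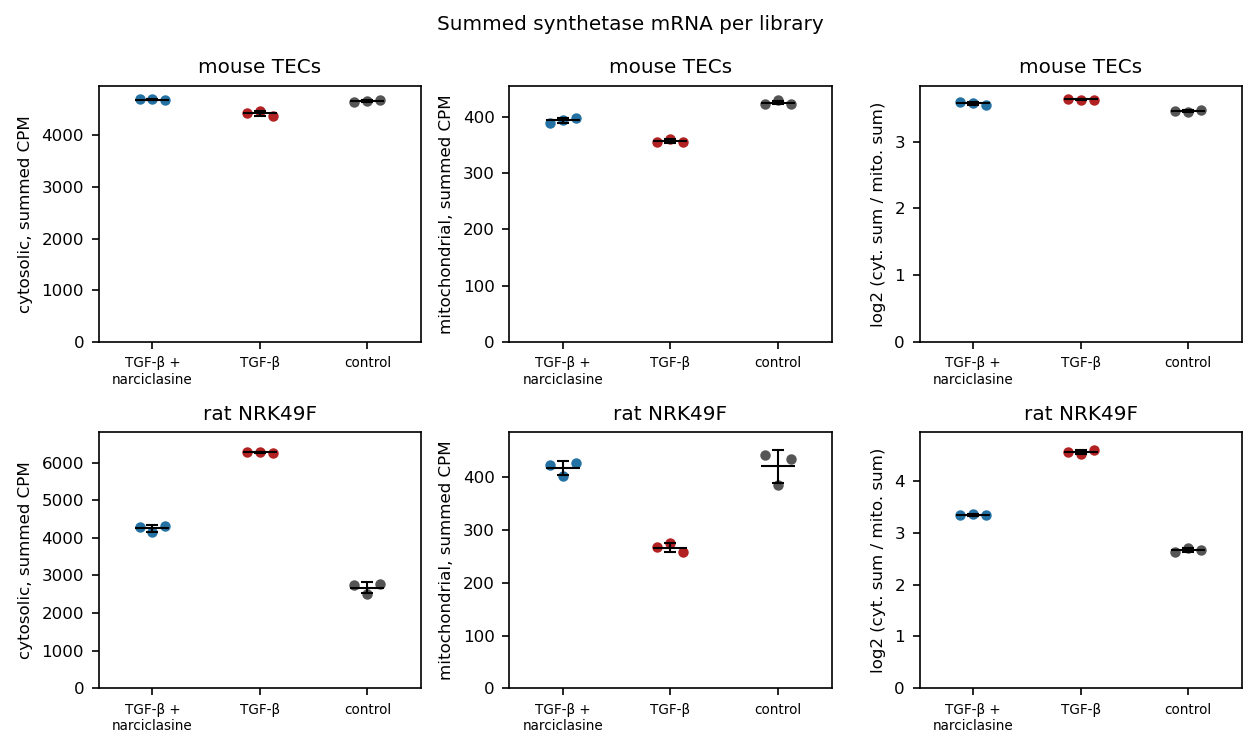
Summed CPM of the 21 cytosolic and the 17 mitochondrial synthetases per library, and the log2 of their ratio, in TECs (top) and NRK49F (bottom); points are libraries and bars the mean and SD of 3. In NRK49F the cytosolic sum is highest and the mitochondrial sum lowest with TGF-β, while the TEC values differ by far less.

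In TECs the same treatments moved the synthetases little, and no member changed 2-fold in any of the 3 comparisons. With TGF-β, 13 of 21 cytosolic genes fell, 5 rose and 3 did not pass the test, with a median of −0.11, and 12 of 17 mitochondrial genes fell, 1 rose and 4 did not pass, with a median of −0.36. Among all 13244 genes tested, 34.9% fell, 34.1% rose and 15% changed at least 2-fold, with a median of 0.00. The mitochondrial gene that rose was Wars2, at 0.19 ± 0.0853 (SE, adjusted p = 0.0481), a call that was lost with DESeq2 (adjusted p = 0.136) and with most single libraries left out (0.0506 to 0.319). Scaling by total counts moved the median of all genes by −0.13, and the cytosolic split was then 17 down and 1 up, with Gars and Iars turning negative.

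Vars, the valyl enzyme, had the largest change with TGF-β over control in TECs, at 239.9, 246 and 245 CPM with TGF-β and narciclasine, 181, 184 and 166 with TGF-β and 319.8, 321 and 317 in control cells. The controls were highest, the TGF-β libraries lowest, and no groups overlapped. Vars changed by −0.85 ± 0.0304 (SE, adjusted p = 1.21e-25) with TGF-β, by 0.46 ± 0.0309 (SE, adjusted p = 5.12e-16) when narciclasine was added and by −0.39 ± 0.0297 (SE, adjusted p = 1.04e-14) between TGF-β with narciclasine and control. Tarsl2, the second cytosolic threonyl enzyme, had 13.6, 14.2 and 15.8 CPM with TGF-β and narciclasine, 9.18, 9.55 and 8.22 with TGF-β and 14.2, 13.4 and 13.8 in control cells. It was lowest with TGF-β, and the other groups overlapped. Farsb had 93.5, 99.4 and 102 CPM with TGF-β and narciclasine, 68.8, 69.8 and 68.9 with TGF-β and 90.8, 92.4 and 96.3 in control cells, with the TGF-β libraries again below all others. Tarsl2 and Farsb changed by −0.62 and −0.43 with TGF-β and by 0.70 and 0.50 when narciclasine was added.

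Qars, the glutaminyl enzyme, had the largest rise with TGF-β over control in TECs, with 155, 163 and 155 CPM with TGF-β and narciclasine, 192, 187 and 191 with TGF-β and 145, 146 and 146 in control cells. It changed by 0.38 ± 0.0302 (SE, adjusted p = 1.86e-14) with TGF-β and by −0.27 ± 0.0302 (SE, adjusted p = 7.21e-10) when narciclasine was added. Eprs had 425, 412 and 408 CPM with TGF-β and narciclasine, 384, 375 and 373 with TGF-β and 399, 405 and 416 in control cells. Its TGF-β libraries were lowest and its other groups overlapped, and it fell by 0.11 with TGF-β (adjusted p = 0.000238). Wars had 103, 104 and 105 CPM with TGF-β and narciclasine, 94.8, 96.4 and 95.4 with TGF-β and 127, 126 and 123 in control cells, with the controls above all others, and changed by −0.39 ± 0.0338 (SE, adjusted p = 2.15e-13) with TGF-β.

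Among mitochondrial genes of TECs, Sars2 had 14.8, 14.4 and 15.98 CPM with TGF-β and narciclasine, 7.63, 8.83 and 7.63 with TGF-β and 14.9, 12.9 and 14.1 in control cells. The TGF-β libraries were lowest, and the other groups overlapped. Sars2 changed by −0.80 ± 0.10 (SE, adjusted p = 2.15e-09) with TGF-β and by 0.92 ± 0.10 (SE, adjusted p = 1.98e-10) when narciclasine was added, the largest mitochondrial values in both comparisons. Pars2 (prolyl) had 4.92, 5.67 and 5.34 CPM with TGF-β and narciclasine, 3.88, 4.84 and 4.36 with TGF-β and 7.51, 7.18 and 7.27 in control cells. Mars2 (methionyl) had 18.4, 17.6 and 15.2 CPM with TGF-β and narciclasine, 12.1, 11.2 and 12.8 with TGF-β and 20.3, 18.4 and 19.3 in control cells. By their means both were highest in controls and lowest with TGF-β, and they changed by −0.75 and −0.67 with TGF-β. Pars2 was not called when narciclasine was added, and Mars2 was not called between TGF-β with narciclasine and control. Lars2 had 21.2, 22.2 and 21.98 CPM with TGF-β and narciclasine, 18.6, 18.8 and 18.7 with TGF-β and 25.04, 26.1 and 24.4 in control cells, without overlap between groups, and changed by −0.43 ± 0.0654 (SE, adjusted p = 2.53e-07) with TGF-β. The mouse Lars2 locus can take reads from other abundant RNA, and a part of such reads in these values was not tested.

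With narciclasine added to TGF-β in TECs, 15 cytosolic genes rose, 3 fell (Gars, Qars and Sars) and 3 did not pass the test, with a median of 0.12, while 9 mitochondrial genes rose, 1 fell (Iars2) and 7 did not pass, with a median of 0.22. Over all genes 26.8% rose, 25.5% fell and 4.41% changed at least 2-fold. Between TGF-β with narciclasine and control, 4 cytosolic genes were higher, 3 lower and 14 not called, and 1 mitochondrial gene was higher, 8 lower and 8 not called, while 32.4% of all genes were higher, 30.6% lower and 11.8% at least 2-fold different. Scaling by total counts turned the cytosolic split to 1 higher and 12 lower. Rars, the arginyl enzyme, had 239, 229 and 235 CPM with TGF-β and narciclasine, 226, 218 and 219 with TGF-β and 193, 194 and 194 in control cells, with no overlap between groups, and differed from control by 0.28 ± 0.0281 (SE, adjusted p = 3.53e-11), the largest cytosolic rise. Aars2, the mitochondrial alanyl enzyme, had 31.7, 33.7 and 33.5 CPM with TGF-β and narciclasine, 26.04, 25.9 and 25.01 with TGF-β and 23.8, 25.6 and 23.00 in control cells, and was the mitochondrial gene that was higher, at 0.44 ± 0.0605 (SE, adjusted p = 4.12e-08).

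**Figure D4:**
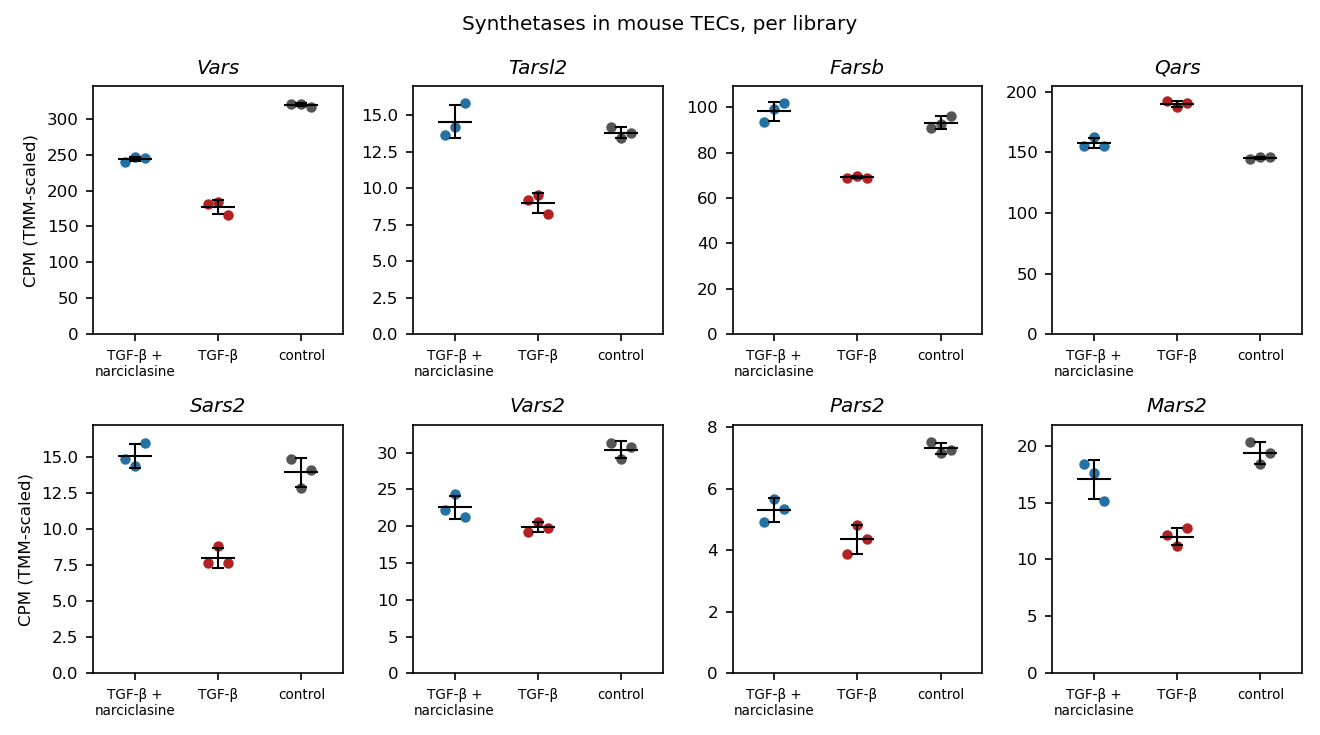
CPM of 4 cytosolic (top) and 4 mitochondrial (bottom) synthetases in each TEC library (points), with the mean and SD of 3 libraries (bars), for TGF-β with narciclasine, TGF-β and control, on axes that start at 0. Every gene but Qars is lowest with TGF-β.

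In mouse, Vars lies at chr17:35000987-35016322 and Sars2 at chr7:28741992-28753871, both on the + strand. Levels between genes were compared per kilobase of exon in the mouse annotation (GENCODE M21, GRCm38). In control TECs the cytosolic genes had 2.05 to 133 CPM per kb with a median of 39.9, and the mitochondrial genes 1.42 to 12.6 with a median of 4.21. Gars was the highest cytosolic gene and Tarsl2 the lowest, and Iars2 was the highest mitochondrial gene and Nars2 the lowest. Exons of Iars2 overlap those of Rab3gap2 and another gene over 24.2% of their length, and those of Aars overlap Exosc6 and another gene over 15.1%. Aars and Exosc6 lie on the same strand, so no counting by strand could separate reads from the exons they share. Iars2 and Rab3gap2 lie on opposite strands. How reads were counted by strand is not given in the sources used here, so their reads cannot be told apart either.

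TECs and NRK49F were compared directly in 1 edgeR fit of all 18 libraries, over 12147 genes with a shared symbol, as the TEC change minus the NRK49F change. Members carry their mouse symbols here, and the changes within each cell kind set beside a difference come from the separate fits. For the TGF-β effect, 20 of 21 cytosolic genes differed, 19 of them lower in TECs and 1, Rars, higher. Of 17 mitochondrial genes, 10 were higher in TECs, 3 lower and 4 did not pass the test. Over all genes 30.1% were lower and 31.4% higher. Vars differed by −2.36 ± 0.0880 (SE, adjusted p = 1.36e-17) and Cars by −2.32 ± 0.0656 (SE, adjusted p = 7.6e-22). Wars2 was the mitochondrial gene with the largest difference, at 1.75 ± 0.176 (SE, adjusted p = 1e-09), with changes of 0.19 in TECs and −1.59 in NRK49F. Qars was the cytosolic gene not called, with 0.38 in TECs and 0.48 in NRK49F.

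For the effect of adding narciclasine to TGF-β, 14 cytosolic genes were higher in TECs, 6 lower and 1 not called, and 1 mitochondrial gene was higher, 10 lower and 6 not called, against 27% higher and 20% lower over all genes. Cars had the largest difference, 2.103 ± 0.0655 (SE, adjusted p = 8.72e-20), followed by Wars with 1.46 ± 0.0758 (SE, adjusted p = 4.69e-15). Among mitochondrial genes, Wars2 differed by −1.24 ± 0.179 (SE, adjusted p = 1.56e-06) and Rars2 by −1.16 ± 0.146 (SE, adjusted p = 1.85e-07).

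**Figure D5:**
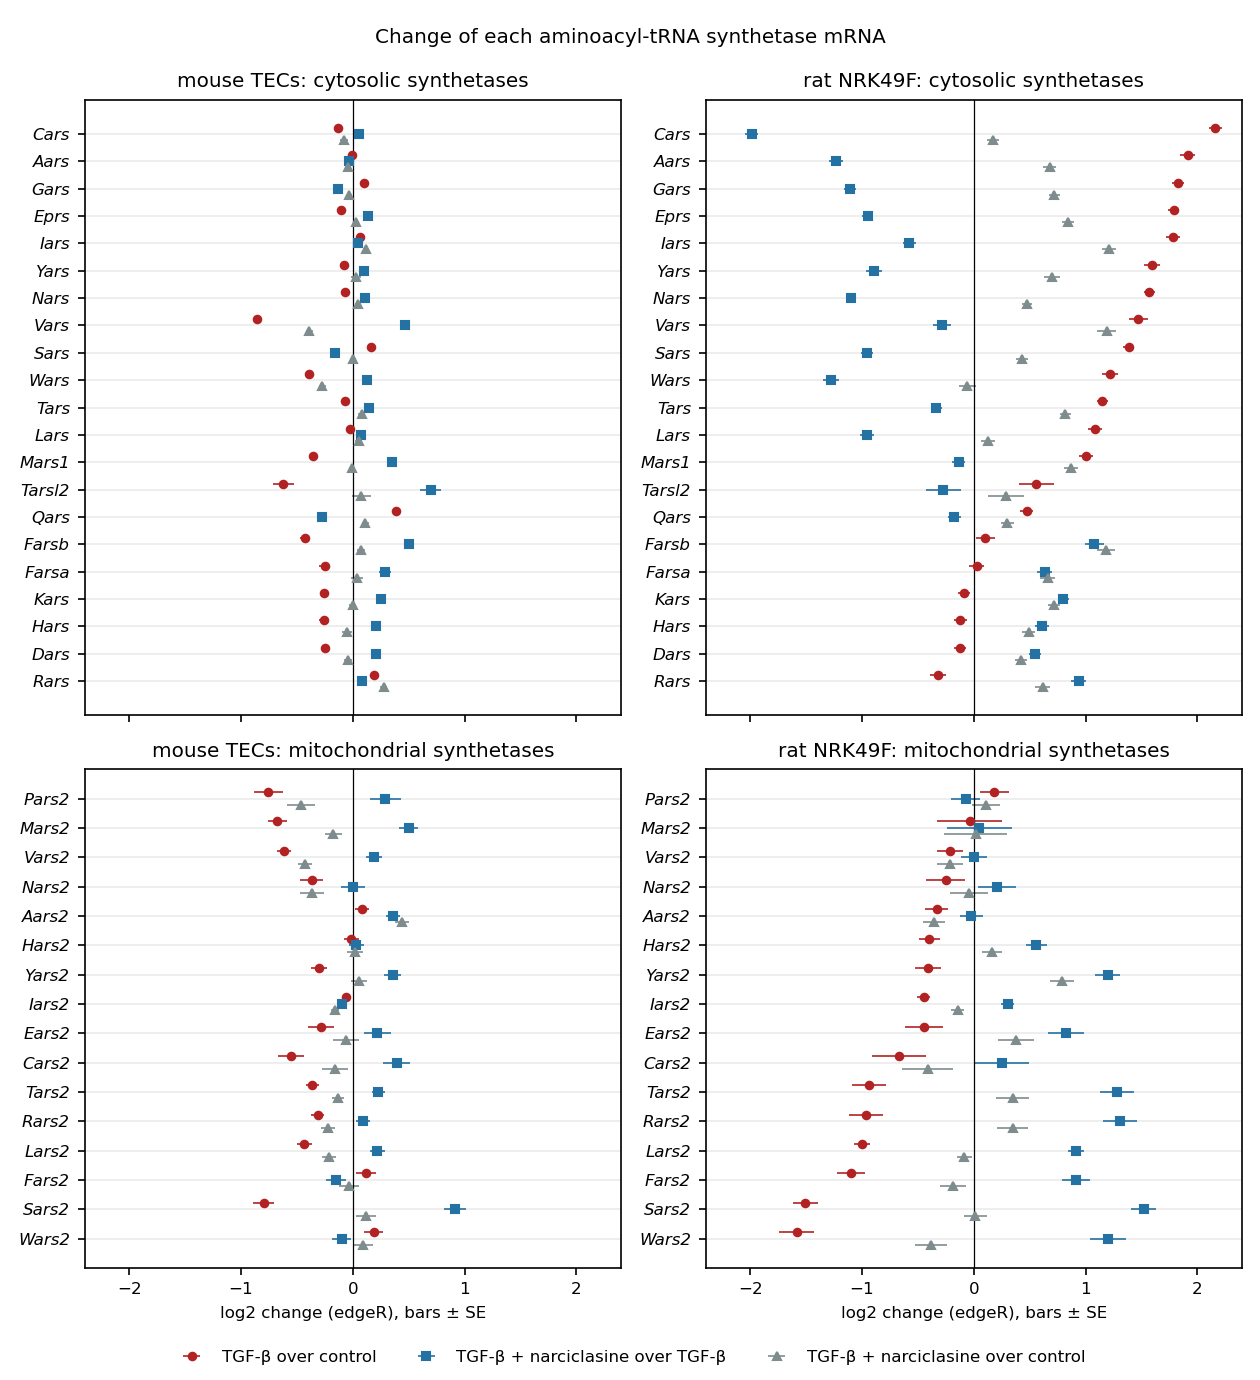
Log2 change of the synthetases but 1 (points, bars ± SE) for TGF-β over control, TGF-β with narciclasine over TGF-β, and TGF-β with narciclasine over control, in TECs (left) and NRK49F (right), with cytosolic genes on top and mitochondrial genes below, ordered by the TGF-β change in NRK49F and named as in mouse. In NRK49F the cytosolic values spread from −0.32 to 2.16 with TGF-β and the mitochondrial ones from −1.59 to 0.18, while all TEC values stay within 1.

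Genes of the ATF4 and amino acid response were examined beside the synthetases, to be read against the shares of all genes called with TGF-β (33.7% up and 38% down in NRK49F, 34.1% up and 34.9% down in TECs) and when narciclasine was added (31.6% up and 31.1% down in NRK49F, 26.8% up and 25.5% down in TECs). In NRK49F, 27 of 31 tested rose with TGF-β and 1 fell, with a median of 2.27, and 28 fell and 0 rose when narciclasine was added, with a median of −1.95. Atf4 itself averaged 467 ± 8.06 CPM with TGF-β and narciclasine, 738 ± 65.4 with TGF-β and 205 ± 24.4 in controls (SD, n = 3 each), and changed by 1.85 with TGF-β and by −0.66 when narciclasine was added. Asns, asparagine synthetase, averaged 49.6 ± 4.21 CPM with TGF-β and narciclasine, 439.6 ± 5.71 with TGF-β and 33.2 ± 6.38 in controls (SD, n = 3 each). Chac1, a glutathione-degrading enzyme, and Trib3, a pseudokinase that restrains ATF4, changed by 4.53 and 3.56 with TGF-β and by −3.97 and −4.33 when narciclasine was added. Ddit3, the stress factor CHOP, did not pass the test in any NRK49F comparison. In TECs, 20 of 35 rose and 11 fell with TGF-β, with a median of 0.12, and 2 rose and 24 fell when narciclasine was added, with a median of −0.34.

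Other steps of tRNA charging were read from the same fits, against the same shares of all genes. Gatb, Gatc and Qrsl1 are the subunits that make glutaminyl-tRNA in mitochondria, which have no glutaminyl synthetase of their own, and Mtfmt formylates the mitochondrial initiator tRNA. In NRK49F the 3 subunits changed by −0.83, −0.90 and −0.56 with TGF-β, and all 4 genes rose when narciclasine was added, by 0.84, 1.17, 1.37 and 0.37 for Gatb, Gatc, Qrsl1 and Mtfmt. Of 12 mitochondrial translation factors, 4 rose and 5 fell with TGF-β in NRK49F. In TECs, 0 rose and 9 fell. Of the genes for tRNA editing, ligation and maturation, 5 of 12 rose and 3 fell in NRK49F with TGF-β, among them Xpot, the tRNA exporter, with a rise of 2.01. In TECs, 1 of 13 rose and 8 fell. Of interferon-stimulated genes, a group examined because Wars1 is one, 6 of 14 rose and 4 fell with TGF-β in NRK49F, with a median of 0.06, and 4 of 13 rose and 4 fell in TECs, with a median of −0.05. These interferon counts lie near the shares of all genes, but single genes changed strongly in both directions. With TGF-β, Irf1 changed by 2.25 and Ifit3 by −3.69 in TECs, and Rsad2 by 2.68 and Gbp2 by −1.44 in NRK49F.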

How the data were processed

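Read counts per gene were deposited as 1 mouse table and 1 rat table, each with 9 libraries. Per the submitters' processing notes, the mouse build mm10 and the programs featureCounts, DESeq2 and HISAT2 2.1.0 were used, with no step given for any of them. No rat build is given in the sources used here. The authors' counts were used as deposited. Each cell kind was fitted with edgeR 4.0.16 in R 4.3.3 (quasi-likelihood test, robust, TMM factors, filterByExpr filter, Benjamini-Hochberg adjustment over all genes tested), with all 9 libraries sharing 1 estimate of spread, and the script was tested on simulated data. The difference between cell kinds was fitted over all 18 libraries and genes sharing a symbol. Calls needed an adjusted p under 0.05. Members given library by library were, per comparison, up to 6 cytosolic and 4 mitochondrial genes each way with the largest called log2 changes of at least 0.5 and no overlap between groups, the 3 with the smallest adjusted p where fewer reached 0.5, and always Eprs, Wars and Lars2. Lack of overlap was thus part of the choice, and its share over all genes is not given here. Cars2 in NRK49F and Qars and Aars2 in TECs were chosen after their values were seen. The values of 1 member are not reported here, though it is counted. The members and gene lists were chosen with earlier results of these data known. Alternatives were RLE factors, total counts, no filter beyond 1 count, DESeq2 1.42.0, a replicate block, only the groups compared, and leaving libraries out. Gene positions came from GENCODE M21 (22267 of 22322 mouse genes matched), and promoters from RefSeq GRCm38.p6.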

Additional observations from a re-analysis of the deposited data

Results flagged for a closer look

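The size of a treatment's effect differed between TECs and NRK49F in the edgeR fit over all 18 libraries, by at least 0.5 on the log2 scale and at an adjusted p under 0.05, in 47 instances. Differences are the TEC change minus the NRK49F change, and genes carry their mouse symbols. For TGF-β over control, the cytosolic differences were −2.36 for Vars, −2.32 for Cars, −1.95 for Aars, −1.93 for Eprs, −1.76 for Gars, −1.75 for Iars, −1.70 for Yars, −1.67 for Nars, −1.64 for Wars, −1.39 for Mars1, −1.26 for Sars, −1.25 for Tars, −1.21 for Tarsl2, −1.14 for Lars and −0.56 for Farsb. The mitochondrial differences for TGF-β were 1.75 for Wars2, 1.19 for Fars2, 0.68 for Sars2, 0.62 for Rars2, 0.55 for Tars2 and 0.54 for Lars2 on the higher side in TECs, and −0.97 for Pars2 and −0.67 for Mars2 on the lower side. For narciclasine added to TGF-β, the cytosolic differences were 2.103 for Cars, 1.46 for Wars, 1.27 for Nars, 1.26 for Aars, 1.14 for Eprs, 1.09 for Lars, 1.06 for Yars, 1.04 for Gars, 1.03 for Tarsl2, 0.86 for Sars, 0.81 for Vars, 0.68 for Iars, 0.54 for Mars1 and 0.54 for Tars on the higher side in TECs, and −0.79 for Rars and −0.51 for Farsb on the lower side. The mitochondrial differences with narciclasine were −1.24 for Wars2, −1.16 for Rars2, −1.002 for Fars2, −0.99 for Tars2, −0.78 for Yars2, −0.63 for Lars2, −0.55 for Sars2 and −0.55 for Ears2, all lower in TECs. Of the 47, 2 were lost under some alternative and 0 reversed. Mars2, whose rat counts are identical to those of another locus, lost its difference in the TGF-β effect without replicate 2 of every NRK49F group (adjusted p = 0.0650), without NRK49F control replicate 1 (0.0791) and without NRK49F TGF-β replicate 3 (0.191). Ears2 lost its difference with narciclasine when 1 of 4 libraries was left out, with adjusted p values of 0.0590 to 0.122. Cell kind and species cannot be told apart in these differences.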

How the results depend on the processing

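With total counts in place of TMM factors, the median gene moved from 0.00 to −0.13 for TGF-β over control in TECs and from −0.05 to −0.24 in NRK49F, and the count of cytosolic genes called between TGF-β with narciclasine and control in TECs was 13 (1 higher, 12 lower) against 7. The genes that turned sign under total counts were, for TGF-β in TECs, Gars (−0.0297) and Iars (−0.0625), for TGF-β with narciclasine over control in TECs, Eprs (−0.0712), Kars (−0.0995), Nars (−0.0528), Sars (−0.0971) and Tars (−0.0200), and for TGF-β in NRK49F, Farsa (−0.161); the changed scaling is what these fits differ in. For TGF-β with narciclasine over control in NRK49F, the count of mitochondrial genes called was 4 with DESeq2, against 7, and 4 to 7 with 1 library left out; the cause was not tested. The counts of all other comparisons stayed within 1.5 times under every alternative run. Of 159 member calls, 24 were lost under at least 1 alternative, and of the 73 with a log2 change of at least 0.5, 1 (Cars2 in NRK49F) was lost and 0 reversed. No label says that a replicate number marks a shared batch or culture, and not every same-numbered pair correlated at over 0.1, so the numbers were not taken as pairing the samples. Same-numbered libraries correlated at −0.17 to 0.22 in TECs and −0.11 to 0.18 in NRK49F, and 3 of 9 and 7 of 9 libraries matched their own number best; in NRK49F all 3 same-numbered pairs of TGF-β with narciclasine and TGF-β correlated at 0.08 to 0.18, a hint of shared numbering there. With the replicate block, the counts called for TGF-β over control were 17 cytosolic and 12 mitochondrial in TECs and 16 and 13 in NRK49F, and the block moved no count by over 1.5 times. Mars2 of the rat, whose counts are identical to those of another locus, had the lowest level of the members, at 1.18 to 2.05 CPM. The reason for its low level was not tested.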
